A study of Rattus norvegicus with 24 samples.

Results

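The cerebral cortex was 1 of 6 dissected regions of the rat brain whose RNA was measured on two-colour arrays, and its saline RNA is described here against that of the other 5 regions. The members were the saline channels of the 4 cortex arrays, chosen by the tissue and treatment in the labels, out of 24 saline channels in the series. All rats were 10-week-old male Wistar rats. The 3 saline rats, of 9 in all, received an intraperitoneal injection of saline, and their brains were removed 40 min later and dissected on ice into the cerebral cortex, hippocampus, amygdala, ventral striatum, hypothalamus and midbrain. The other channel of every array held RNA of rats given MK-801, which blocks NMDA receptors by entering their pore, at 0.16 mg per kg on arrays 1 and 2 of a region and 0.08 mg per kg on arrays 3 and 4. Saline RNA was labelled with Cy3 on arrays 1 and 3 and with Cy5 on arrays 2 and 4. Since the labels tie arrays to no rat and are silent on pooling of RNA, the 4 channels of a region may be technical repeats, and the p-values below measure only the spread between arrays of a region.

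The cerebral cortex is built mainly of glutamatergic projection neurons arranged in layers, with a smaller population of GABAergic interneurons that often release neuropeptides. It arises from the dorsal telencephalon, the pallium, as does the hippocampus, and part of the amygdala is also pallial. Transcription factors such as Fezf2 and Emx1 are known for specifying or marking pallial projection neurons, whereas the choroid plexus and the ciliated ependyma line the brain ventricles. Levels are given as normalised intensity on the log2 scale, where a difference of 1 is a 2-fold change. Such levels compare regions for the same probe and do not rank genes against each other.

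Region and slide cannot be told apart, because every region had a slide to itself, and the cortex and the ventral striatum were scanned on the same day. The share of probes well above background in a saline channel was 56.8% to 89.7%, with 71.2% to 89.7% in the cortex and at most 81.5% in the other regions. No spot of the cortex saline channels was saturated. Of 12 textbook markers of cortical neurons, 11 were measured. The cortex was the highest region for 4 of them and the lowest for 0, against 16.9% and 14.8% of all genes. Their median difference from the mean of the other 5 regions was 1.82. The cortex was also highest for 1 of 3 hippocampal markers, Tdo2, and 1 of 3 hypothalamic markers, Hcrt. It was highest for 0 of 5 striatal, 0 of 2 thalamic and 0 of 3 midbrain markers. Of 19 measured oligodendrocyte genes the cortex was the highest region for 0.

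The comparison of 1 cortex value with 5 regional values called 0 of 28580 genes or transcripts (0%) in limma at an adjusted p under 0.05, while 1317 (4.61%) had an unadjusted p under 0.05. The lowest adjusted p was 0.0725, for Tnmd, which passed the filter for dim probes through the cortex channels alone. A second comparison, added after that count was known, fitted all 24 saline channels in limma and called a gene when the cortex differed in the same direction from each of the 5 other regions, with the largest of the 5 p-values adjusted over all genes. It called 225 genes higher (0.787%) and 224 lower (0.784%), of which 132 and 134 had a gene symbol. "Higher" and "lower" below refer to this rule, and every adjusted p below is limma's for it. A call therefore includes a difference from the ventral striatum, the region scanned on the same day. With normexp background correction the numbers were 141 higher and 78 lower, and with scaling to the 75th percentile 282 higher and 160 lower.

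The 4 cortex channels lay above all 20 others for 508 genes (1.78% of those tested) and below all 20 for 384 (1.34%). Of the genes called higher, 216 of 225 were without overlap, and of those called lower, 201 of 224. The region closest to the cortex was most often the amygdala for higher genes, in 75 of 225, followed by the hippocampus in 54. For lower genes it was most often the ventral striatum, in 77 of 224, followed by the hippocampus in 64. Over all genes, 3641 differed more than 2-fold from the cortex in the ventral striatum, 3651 in the amygdala, 4736 in the hippocampus, 4994 in the midbrain and 6137 in the hypothalamus. The call favours genes that set the cortex apart from its closest region, and 95 of the higher and 93 of the lower genes differed from that region by more than 2-fold.

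The probes behind 5 of the results are shown because the values rest on how specific each 60-base sequence is. Cyp11b1 and Cyp11b2 are close paralogs, and the capitals in their probes mark the longest run of bases that these probes share, 6 bases. Aligned without gaps, the probes matched at no more than 21 of 60 bases. This compares the probes with each other, and binding of either probe to RNA of the other gene was not tested. The positions are those of the array files on rat assembly rn3.
Cyp11b1: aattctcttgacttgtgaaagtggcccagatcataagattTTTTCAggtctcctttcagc
Cyp11b2: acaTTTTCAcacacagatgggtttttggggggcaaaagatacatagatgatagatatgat
Cort: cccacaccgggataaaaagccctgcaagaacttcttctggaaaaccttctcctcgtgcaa
Otx2: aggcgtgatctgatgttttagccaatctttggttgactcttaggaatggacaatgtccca
Ttr: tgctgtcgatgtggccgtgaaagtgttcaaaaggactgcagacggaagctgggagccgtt
The Cyp11b1 probe lies at chr7:113012000-113012059 and the Cyp11b2 probe at chr7:113078374-113078433, both on the minus strand. The Cort probe lies at chr5:166209249-166209308 and the Otx2 probe at chr15:24639154-24639213, also on the minus strand. The Ttr probe lies at chr18:12434403-12434462 on the plus strand.

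The named genes furthest above the mean of the other regions began with Cyp11b1, Wnt10a and Cort. Cyp11b1, which encodes the enzyme that makes corticosterone in the adrenal gland, read 10.62, 10.94, 11.20 and 11.22 in cortex channels 1 to 4. Every other channel lay between 5.19 and 8.36, the amygdala being the next region at 8.34 ± 0.02 (SD, n = 4). The cortex exceeded the mean of 5 regions by 4.43 and the amygdala by 2.65 ± 0.19 (SE), a 6.28-fold difference (adjusted p = 2.3e-08). Cyp11b2, the aldosterone synthase, read 7.39, 7.97, 8.25 and 8.01, against 5.34 ± 0.13 (SD, n = 4) in the amygdala. It exceeded the amygdala by 2.57 ± 0.42 (SE, adjusted p = 0.00103), and 8 of the 20 other channels were well above background. The remaining paralog, Cyp11b3, was near equal in the regions, with 5.39 in the cortex and 5.21 as the mean of the others.

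Arc, an activity-induced gene described below, belongs to the same stretch of chromosome 7. On rn3 the Arc probe lies 205.7 kb from that of Cyp11b1, and the Cyp11b2 probe 66.4 kb on its other side. Within 300 kb on each side of the Cyp11b1 probe 21 genes or transcripts were measured. These 3 were called higher and 0 lower, against 0.787% and 0.784% of all genes. Gml, located between Arc and Cyp11b1, read 5.50 in the cortex and 3.00 in the others, a difference of 2.51 that was not called. Lynx1, an endogenous modulator of nicotinic receptors, differed by 0.53. The cortex was the highest region for 10 of the 21, where 16.9% of all genes had the cortex highest. Cyp11b1, Cyp11b2 and Arc are among these 10. The window is centred on Cyp11b1 and was chosen after the values of Cyp11b1 and Cyp11b2 were seen. Both counts therefore include genes that prompted it.

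Cort, the somatostatin-related peptide cortistatin of cortical interneurons, read 12.38, 12.44, 12.51 and 12.68. The hippocampus followed at 10.50 ± 0.17 (SD, n = 4), the amygdala at 9.54 ± 0.06, the ventral striatum at 9.47 ± 0.26, the midbrain at 5.95 ± 0.42 and the hypothalamus at 5.67 ± 0.43. The amygdala and the ventral striatum did not differ beyond their spread, nor did the midbrain and the hypothalamus. The cortex lay 2.00 ± 0.17 (SE) above the hippocampus, a 4.00-fold difference (adjusted p = 2.99e-07). Wnt10a, a secreted Wnt ligand, ranged from 10.98 to 11.60 in the cortex and from 3.79 to 9.36 elsewhere, and a second probe of the gene differed in the same direction by 3.00. It exceeded the hippocampus by 2.16 ± 0.16 (SE, adjusted p = 2.91e-08).

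Several other genes of this group are better known from tissues outside the brain, and part of them were dim elsewhere. Tnmd, tenomodulin of tendon cells, read 6.79, 6.69, 6.03 and 6.08 in the cortex and was not well above background in any of the 20 other channels. Its difference is therefore a bound, at least 3.61-fold higher than in the hippocampus, the closest region. The filter asked for 4 channels well above background, so Tnmd was tested only through its cortex signal, and its p-value is no support. Ostn, the secreted peptide osteocrin of bone and muscle, read 6.63, 7.26, 6.95 and 7.15, and 2 of the 20 other channels were well above background. Cd200r1, an inhibitory receptor of myeloid cells, ranged from 6.79 to 6.93 in the cortex, with 1 of the 20 others above background. Dpt, the matrix protein dermatopontin, ranged from 5.98 to 6.53, also with 1 of 20. Ostn, Cd200r1 and Dpt likewise needed cortex channels to pass the filter. In all, 17 of the 225 higher genes were well above background in under 5 of the other 20 channels, and 150 were so in all 24 channels.

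Further named genes with a great excess were Prss22, Ovol2, Dpp4, Hs3st2, Prr15 and Igfbp4. Igfbp4, a binding protein of insulin-like growth factors, read 12.75, 12.62, 12.62 and 12.48 against 10.78 ± 0.14 (SD, n = 4) in the amygdala (adjusted p = 2.65e-10). Dpp4, a peptidase that trims peptide hormones, ranged from 9.72 to 9.87, and its second probe differed by 4.58. Hs3st2, a sulfotransferase of heparan sulfate, read 13.30, 12.73 and 12.88, and its value on array 3 was left out of the fit because of an outlier mark. Ovol2, a zinc finger factor of epithelia, exceeded the hippocampus by 2.83 ± 0.26 (SE). For these 6 genes the 4 cortex channels, or 3 for Hs3st2, lay above all others.

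**Figure D1:**
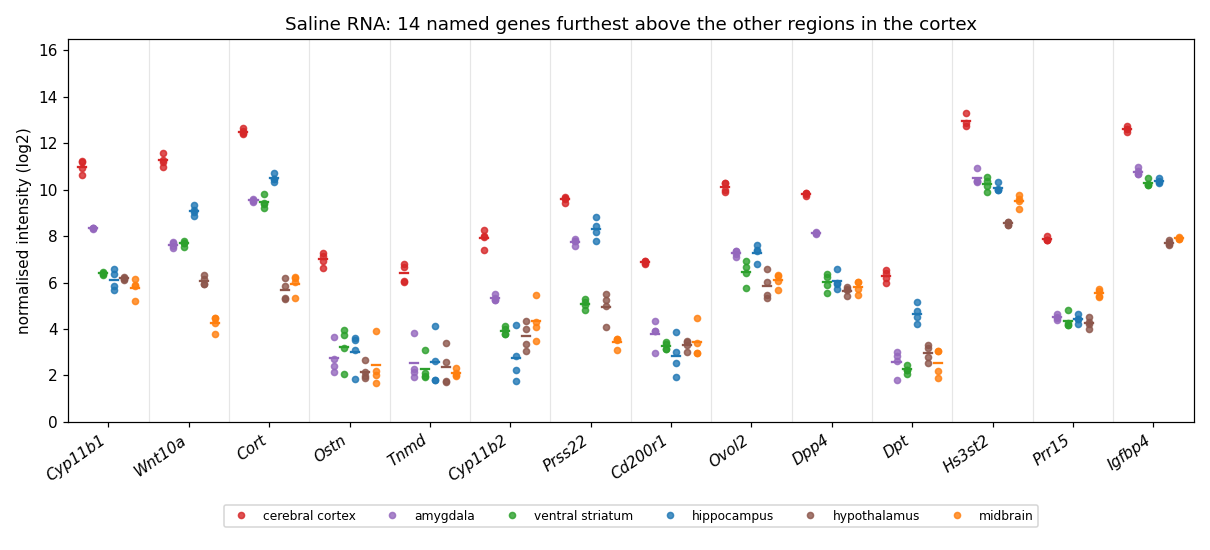
Normalised log2 intensity of 14 of the named genes furthest above the other regions, with a point for each saline channel and a short line for the mean of a region. The cortex points (red) lie above those of all other regions for each gene, and the amygdala or the hippocampus is usually next, as for Cyp11b1 at 8.34 and Cort at 10.50.

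The layer and projection neuron genes gave a graded picture rather than a cortex-only one. Cux2, a homeobox gene of upper layers, had the cortex highest at 11.33 ± 0.25 (SD, n = 4), with an adjusted p of 0.0737. Lamp5, of superficial layers and some interneurons, had the cortex at 12.13 ± 0.20 and the ventral striatum at 11.57 ± 0.18 (adjusted p = 0.932). Rorb, a marker of the input layer in primary areas, showed 7.23 in the cortex and 8.20 in the hypothalamus. The median difference of the upper layer list was 0.25, against 0.01 over all genes.

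Of 18 measured deep layer genes, 1 was higher and 0 lower, against 0.787% and 0.784% of all genes, with a median of 0.34. The called gene was Rxfp1, a relaxin receptor, which read 7.56, 7.11, 7.31 and 7.02 and exceeded the amygdala by 1.41 ± 0.30 (SE, adjusted p = 0.0129, or 0.0562 without cortex array 1). Rln1, a relaxin gene, was higher too, by 3.17 over the mean of the others; it was singled out after its values were seen. Fezf2, which specifies subcortical projection neurons, read 10.76 ± 0.14 (SD, n = 4) in the cortex and 10.79 ± 0.16 in the hippocampus, which overlapped, while the midbrain read 2.30 ± 0.31. Foxp2, of corticothalamic neurons, was highest in the ventral striatum at 11.48 ± 0.06 and read 9.53 ± 0.13 in the cortex.

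The genes shared by pallial projection neurons lay above the average of the other regions without separating the cortex from the hippocampus. All 20 measured members differed upward, from 0.43 to 3.09 with a median of 1.51, yet 0 were called. The cortex was the highest region for 6 of the 20 and second for 9. Neurod6, a differentiation factor of pyramidal neurons, read 11.78 ± 0.26 in the cortex and 12.07 ± 0.13 in the hippocampus (SD, n = 4). Slc17a7, the vesicular glutamate transporter of pallial neurons, read 8.07 ± 0.11 in the cortex, 9.16 ± 0.55 in the hippocampus and 7.44 ± 0.09 in the amygdala. Camk2a, the synaptic kinase subunit, followed the same order, with 12.19 ± 0.23 in the cortex and 12.47 ± 0.42 in the hippocampus. Nrgn, a calmodulin-binding protein of dendrites, was highest in the cortex at 15.28 ± 0.22, but by only 0.27 over the hippocampus.

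**Figure D2:**
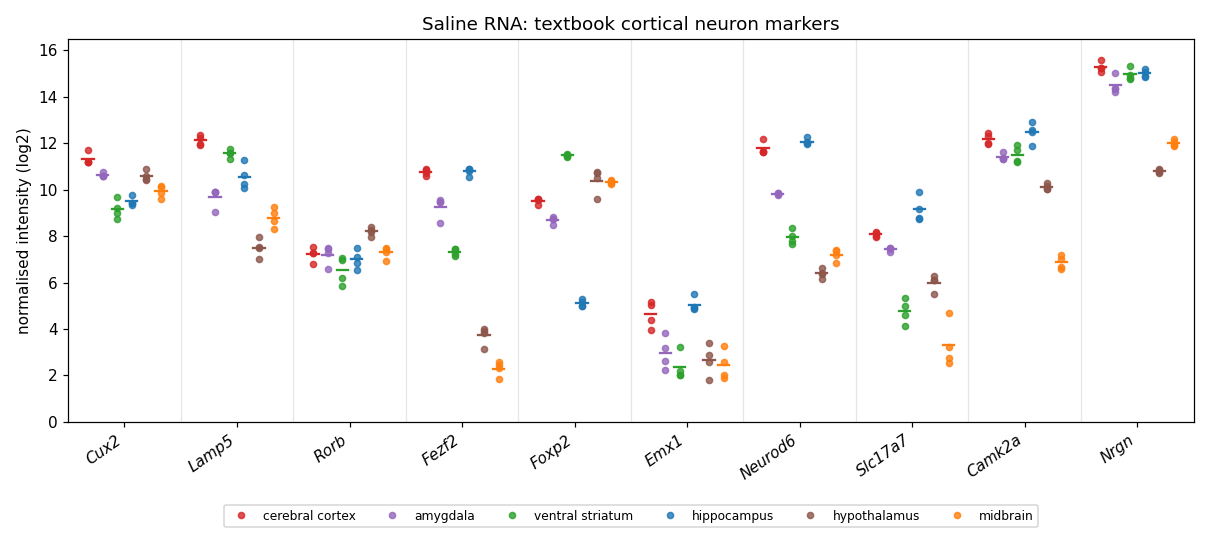
Normalised log2 intensity of 10 textbook markers of cortical neurons in the 6 regions, with a point for each saline channel and a short line for the mean. Cux2, Lamp5 and Nrgn have their highest mean in the cortex (red), whereas Fezf2, Neurod6, Slc17a7 and Camk2a reach similar or greater levels in the hippocampus (blue).

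Of 27 measured genes known to be induced by neuronal activity, the cortex was the highest region for 14, where 16.9% of all genes had the cortex highest. Of the 27, 3 were called higher and 0 lower, against 0.787% and 0.784% of all genes, and the median difference was 1.07. Arc, which regulates glutamate receptor trafficking, read 13.73, 13.53, 13.72 and 13.61, and the next region was the ventral striatum at 12.76 ± 0.07 (SD, n = 4), a gap of 0.89 ± 0.09 (SE, adjusted p = 2.3e-06). Egr1, an immediate early transcription factor, read 14.69, 14.98, 14.93 and 14.98 against 14.35 ± 0.19 in the ventral striatum (adjusted p = 0.0204). Its adjusted p was 0.0733 with normexp correction, and without cortex array 2, 3 or 4 it was 0.0641, 0.0849 or 0.0589. Ptgs2, the inducible cyclooxygenase, ranged from 10.04 to 10.22 and exceeded the amygdala by 0.89 ± 0.12 (SE, adjusted p = 8.69e-05). Egr2 had the greatest mean difference of the list, 3.78, but its cortex channels ranged from 10.72 to 11.97 and it was not called (adjusted p = 0.464). Fos had the cortex highest with a difference of 1.36, and Jun showed 0.01.

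Potassium channel subunits, most of which set the excitability of neurons, held 5 higher genes and 1 lower gene of 55 measured, against 0.787% higher and 0.784% lower over all genes, with a median difference of 0.40. Kcnv1, a silent subunit that modifies other channels, read 12.74, 13.01, 12.85 and 13.19 and lay 0.83 ± 0.16 (SE) above the ventral striatum (adjusted p = 0.00476, or 0.0768 with normexp correction). Kcns1, another modifier subunit, ranged from 9.06 to 9.19 and lay 1.55 ± 0.12 above the hypothalamus (adjusted p = 4.5e-08). Kcnb2, a delayed rectifier, lay 1.35 ± 0.19 above the amygdala, and Kcnh7, of the ERG family, 1.34 ± 0.16 above the hippocampus. Kcnmb4, a subunit of calcium-activated channels, lay 0.89 ± 0.20 above the hippocampus (adjusted p = 0.0213), which was 0.159 with normexp correction, 0.0907 without cortex array 1 and 0.0692 without array 4. Kcnn3, a small-conductance calcium-activated channel, was the lower member of the list, at 5.40 ± 0.30 (SD, n = 4) against 6.34 ± 0.22 in the hippocampus (adjusted p = 0.000512). The inward rectifier Kcnj16, described below, was lower too but is not among the 55.

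Among neurotransmitter receptors few members passed, where 0.787% of all genes were higher and 0.784% lower. Htr2a, the serotonin receptor through which classic hallucinogens act, read 8.92, 8.62, 8.87 and 8.54 and exceeded the ventral striatum by 1.13 ± 0.20 (SE, adjusted p = 0.00191). With its 3 probes averaged, 1 of them dim, the adjusted p was 1. It was the 1 called gene of 42 measured monoamine, acetylcholine and opioid receptors, whose median was 0.13. Grm8, a presynaptic glutamate receptor, was the 1 of 24 glutamate receptors, with a gap of 0.83 ± 0.15 to the midbrain (adjusted p = 0.00222, or 0.217 with normexp correction). Of 15 GABA receptor subunits 0 were called, with a median of 0.54, and of 31 calcium and calmodulin signalling genes 0, with a median of 0.51. Ephb6 and Efna2, a receptor and a ligand of the Eph family, were higher, 2 of 20 against 0.787% of all genes. Of 14 cadherins 0 were called. Ephb6 ranged from 11.60 to 11.75 (adjusted p = 5.96e-05, or 0.0508 with probes averaged). Efna2 ranged from 7.78 to 8.12 (adjusted p = 0.0246), which rose above 0.05 with normexp correction (0.176) and without cortex array 1, 2 or 4 (0.0604, 0.0875 and 0.107).

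Of 22 measured neuropeptides, 2 were higher and 4 lower, against 0.787% and 0.784% of all genes. Grp, gastrin-releasing peptide, read 13.51, 12.87, 13.13 and 13.14 and lay 1.70 ± 0.13 (SE) above the amygdala (adjusted p = 4.88e-08), and Cort is described above. Grp was also the 1 called gene of 6 measured amygdala neuron genes. Vip, Sst and Cck had the cortex highest without a call, at 13.82 ± 0.10, 14.55 ± 0.08 and 15.17 ± 0.14 (SD, n = 4). Nts, neurotensin, read 6.11, 5.26, 5.95 and 6.46, and the next lowest region was the hypothalamus at 8.53 ± 0.40, a difference of -2.58 ± 0.24 (SE, adjusted p = 9.92e-07). Its second probe differed by -4.23 from the mean of the others. Cartpt, a peptide of feeding and reward circuits, ranged from 6.68 to 7.01 in the cortex and from 8.11 to 13.49 elsewhere (adjusted p = 3.09e-09). Trh, thyrotropin-releasing hormone, read 3.45, 2.62, 3.30 and 3.55 (adjusted p = 0.00403, or 0.677 with normexp correction), and Gal, galanin, ranged from 8.38 to 8.53 (adjusted p = 0.0021).

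Interneuron genes as a list did not lean either way. Of 26 measured, Cort was the 1 called, against 0.787% higher over all genes, and the median difference was -0.04. Slc32a1, which loads GABA into vesicles, had the cortex as the lowest region, at 12.40 ± 0.21 (SD, n = 4), without a call. Gad1, which makes GABA, read 9.84 ± 0.78 in the cortex with its brightest probe, the lowest of the regions, whereas its other 2 probes had the cortex in place 3 of 6, with differences of -0.20 and -0.27. Calb2, calretinin, read 10.50 ± 0.19 in the cortex and 10.43 ± 0.21 in the ventral striatum, and the other regions were higher (SD, n = 4).

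The named genes furthest below the mean of the other regions began with Otx2 and Ttr. Otx2, a homeobox factor of the midbrain and of choroid plexus epithelium, read 1.72, 1.76, 2.12 and 1.74, not well above background in any cortex channel. The other regions reached from 6.98 ± 0.34 in the hippocampus to 11.21 ± 0.05 in the midbrain (SD, n = 4). It was at least 15.6-fold lower in the cortex than in the hippocampus, the closest region (adjusted p = 1.43e-14), and at least 71.6-fold lower than the mean of the 5 regions. A second Otx2 probe read 4.49 in the cortex and 6.45 in the others, a smaller difference of -1.96 in the same direction. Ttr, the thyroxine carrier that choroid plexus secretes, read 4.55, 4.05, 4.38 and 6.26 in the cortex and 14.93 ± 0.11 in the amygdala, 13.18 ± 0.06 in the hypothalamus and 12.42 ± 0.14 in the hippocampus. The ventral striatum, at 7.97 ± 0.29, and the midbrain, at 7.21 ± 0.24, came closest to the cortex, and the difference from the midbrain was -2.40 ± 0.30 (SE, adjusted p = 4.46e-05).

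Of 12 measured choroid plexus genes, 4 were lower and 0 higher, with a median difference of -1.07 (0.784% of all genes were lower). The cortex was the lowest region for these 4 alone, and the differences of the 12 ranged from -7.35 to 0.99. The markers Kl and Clic6 were not called. Kl ranged from 1.93 to 3.87 in the cortex and 2.00 to 3.14 in the ventral striatum, and Clic6 from 4.11 to 4.41 and 3.86 to 4.57. Sostdc1, a secreted inhibitor of BMP and Wnt signals, ranged from 3.83 to 6.23 (adjusted p = 0.0277), which became 0.648 with normexp correction, 0.0587 without cortex array 4, 0.0593 without the midbrain and 0.0519 without the hypothalamus. Enpp2, autotaxin, ranged from 10.63 to 10.84 (adjusted p = 0.0159), which became 0.433 with normexp correction and 0.0538 without cortex array 1. The summed intensity of the 12 genes was lowest in the cortex, between 10.91 and 11.17 on the log2 scale, with 11.71 to 11.98 in the ventral striatum and 15.17 to 15.42 in the amygdala. Otx2 was the 1 gene of the list not well above background in any cortex channel. In dissected tissue, fewer cells of a type and less RNA per cell cannot be told apart, and how much choroid plexus each dissected piece held was not tested.

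Several of the lower genes belong to motile cilia. In gene families named Cfap, Dnah, Drc, Rsph or Tekt, chosen after the lowest genes were seen, 47 members were measured, of which 9 were lower and 0 higher, against 0.784% and 0.787% of all genes. The cortex was the lowest region for 17 of the 47, where 14.8% of all genes had the cortex lowest, and the median difference was -0.45. Cfap43, needed for the axoneme of motile cilia, read 4.53, 3.67, 4.58 and 4.52 and the midbrain 7.44 ± 0.40 (SD, n = 4), a difference of -3.11 ± 0.26 (SE, adjusted p = 2.45e-07). Cfap161 read 4.43, 3.84, 3.60 and 2.53 and the hippocampus 6.20 ± 0.10, a difference of -2.60 ± 0.24 (adjusted p = 7.42e-07). Second probes of Cfap43 and Cfap161 had the cortex lowest too, with differences of -2.72 and -4.33. Probes of some other members disagreed. The brightest and the other probe differed by 0.03 and -5.64 for Cfap126, and by -0.09 and -3.30 for Dnah1. Of the called Dnah12, a dimmer probe differed by 0.67 with the cortex highest. The counts, median and sum of the families use the brightest probe of each gene. The other called members were Rsph4a, Cfap206, Tekt1, Drc12, Dnah12, Tekt4 and Cfap144, from -3.27 to -1.64. Foxj1, the master transcription factor of motile ciliogenesis, is in none of these families and was singled out after its values were seen. It was lower, ranging from 7.68 to 8.54 in the cortex and lying -1.78 ± 0.16 (SE) from the ventral striatum (adjusted p = 5.05e-07). The summed intensity of the 47 genes was not lowest in the cortex, where it ranged from 14.85 to 15.03 with a mean of 14.94, against means of 14.87 in the ventral striatum (14.66 to 14.96) and 14.82 in the hippocampus (14.46 to 15.02). The bright members Cfap36 and Cfap20 were not called.

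Because the called cilium genes lay low together, their promoters were searched for GTTGCC, the half-site of the X-box that RFX factors bind, on both strands. The promoters, from 250 bases before to 50 after the start site, come from RefSeq on GRCr8. The letters occurred in 5 of 8 promoters of the called members, in 17 of 40 of all measured members of these families and in 12.2% of all promoters. Among all genes called lower with a promoter sequence they occurred in 15.5%, and among those called higher in 8%. The Cfap161 promoter (chr1:147177772-147178071, minus strand) and the Cfap144 promoter (chr10:44019232-44019531, minus strand) are shown as examples that hold GTTGCC or its reverse complement in more than 1 place, marked in capitals.
Cfap161: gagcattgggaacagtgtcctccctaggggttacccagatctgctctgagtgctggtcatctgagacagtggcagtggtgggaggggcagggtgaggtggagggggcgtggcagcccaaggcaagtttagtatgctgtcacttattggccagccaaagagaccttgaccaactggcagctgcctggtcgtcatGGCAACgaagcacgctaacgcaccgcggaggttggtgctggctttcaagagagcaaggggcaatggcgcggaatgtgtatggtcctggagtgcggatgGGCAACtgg
Cfap144: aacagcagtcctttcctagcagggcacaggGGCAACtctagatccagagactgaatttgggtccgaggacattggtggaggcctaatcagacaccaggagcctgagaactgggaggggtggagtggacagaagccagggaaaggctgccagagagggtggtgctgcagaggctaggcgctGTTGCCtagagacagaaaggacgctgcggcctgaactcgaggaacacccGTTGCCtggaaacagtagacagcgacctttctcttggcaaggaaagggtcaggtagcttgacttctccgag
Such a match describes the letters and is no evidence of binding.

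The other named genes low in the cortex included transporters and a channel. Slc5a7, the choline transporter of cholinergic neurons, was singled out after its values were seen, and its cortex channels ranged from 5.64 to 6.13 (adjusted p = 0.000542). Slc18a2, the vesicular monoamine transporter, was the 1 lower gene of 14 measured midbrain monoamine genes, against 0.784% of all genes. It differed by -0.70 from the amygdala (adjusted p = 0.0208). That value was 1 with normexp correction, 1 with percentile scaling, 0.928 with probes averaged, and 0.111 and 0.0860 without cortex arrays 2 and 3. Frem3, an extracellular matrix protein, ranged from 3.09 to 4.15 in the cortex, where 2 of 4 channels were well above background, and from 6.83 to 10.11 elsewhere (adjusted p = 6.52e-10). Kcnj16, an inward rectifier, ranged from 3.50 to 5.76 (adjusted p = 0.000471).

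C8h11orf97 and Efhb, an EF-hand protein, were not well above background in any cortex channel. Against the hippocampus, the closest region, they were at least 5.81-fold and 3.91-fold lower, where 3 and 1 of the 4 hippocampal channels were well above background (adjusted p = 4.38e-08 and 3.77e-07). Grifin, a galectin-related protein of the lens, read 2.28, 4.22, 4.57 and 4.73 against 5.79 ± 0.32 in the hippocampus, the closest region, and 11.23 ± 0.23 in the midbrain, the furthest (SD, n = 4). Its difference from the hippocampus was -1.84 ± 0.37 (SE). Its adjusted p of 0.00875 was 0.152 with normexp correction and 0.0988 with percentile scaling. Lef1, a Wnt-responsive factor of the thalamus, was the 1 lower gene of 9 measured thalamic genes, against 0.784% of all genes. Its adjusted p of 0.00313 became 1 with normexp correction and 0.286 with percentile scaling. Agt, the angiotensin precursor made by astrocytes, read 11.87, 11.83, 11.89 and 11.85 against 12.92 ± 0.08 in the ventral striatum (adjusted p = 2.3e-08).

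**Figure D3:**
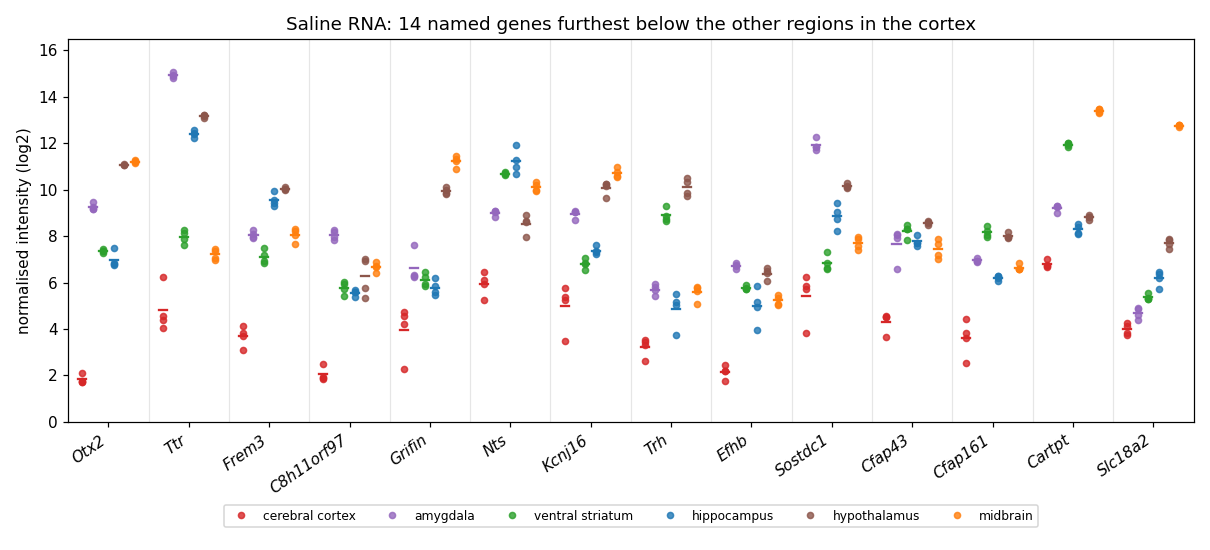
Normalised log2 intensity of 14 of the named genes furthest below the other regions, with a point for each saline channel and a short line for the mean of a region. Cortex points (red) lie lowest for each gene. Otx2, whose cortex signals of 1.83 on average were not well above background, reads 6.98 or more elsewhere, and Ttr is as high as 14.93 in the amygdala.

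Glial and regional neuron lists lay mostly below zero with few calls, where 0.787% of all genes were higher and 0.784% lower. Oligodendrocyte genes had a median of -1.06, 0 of 19 called, with the cortex in place 5 or 6 of the 6 regions for every measured member. Mbp, the myelin basic protein, read 13.09 ± 0.12 in the cortex and 13.12 ± 0.31 in the amygdala, which overlapped, and 15.98 ± 0.76 in the midbrain (SD, n = 4). Astrocyte genes had a median of -0.53 with 1 of 17 called, Agt, and microglial genes -0.22 with 0 of 14. Endothelial and pericyte genes had a median of -0.13 with 0 of 17 called, and meningeal fibroblast genes 0.53 with 0 of 13. The summed intensity of the 13 meningeal genes was 16.21 to 16.47 in the cortex, above 14.68 to 14.86 in the ventral striatum and below 17.06 to 17.37 in the amygdala.

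Striatal neuron genes had a median of -0.71 and hippocampal neuron genes -0.47, with 0 of 19 and 0 of 8 called. Adora2a, an adenosine receptor of striatal neurons, had the cortex lowest at 7.45 ± 0.16, while the ventral striatum read 13.78 ± 0.14 (SD, n = 4). It was the 1 striatal gene of 19 with the cortex lowest, and its second probe had the cortex in place 5. The summed intensity of the 19 genes was 15.61 to 15.72 in the cortex, second to 18.59 to 18.72 in the ventral striatum. The hypothalamus followed at 15.38 to 15.53. Hypothalamic genes had a median of -0.42 with 3 of 22 lower, against 0.784% of all genes. These were Trh, Cartpt and Gal, already counted among the neuropeptides. Trh was highest in the hypothalamus, at 9.7 to 10.5. Cartpt was highest in the midbrain, at 13.31 to 13.49, and read 8.69 to 8.89 in the hypothalamus. Gal read 9.72 to 9.91 in the midbrain and 9.68 to 9.88 in the hypothalamus. The cortex was the highest region for 3 of the 22 and the lowest for 9, against 16.9% and 14.8% of all genes. Midbrain monoamine genes had a median of -0.91, thalamic genes -1.08, amygdala genes 1.39 and transcription factors of the brainstem and diencephalon -0.56, where Otx2 was the 1 called of 16. Ribosomal protein genes, with a median of -0.08 and 0 of 31 called, and oxidative phosphorylation genes, with 0.00 and 0 of 27, stayed near the median of all genes, as did 3 measured red blood cell genes at -0.05.

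**Figure D4:**
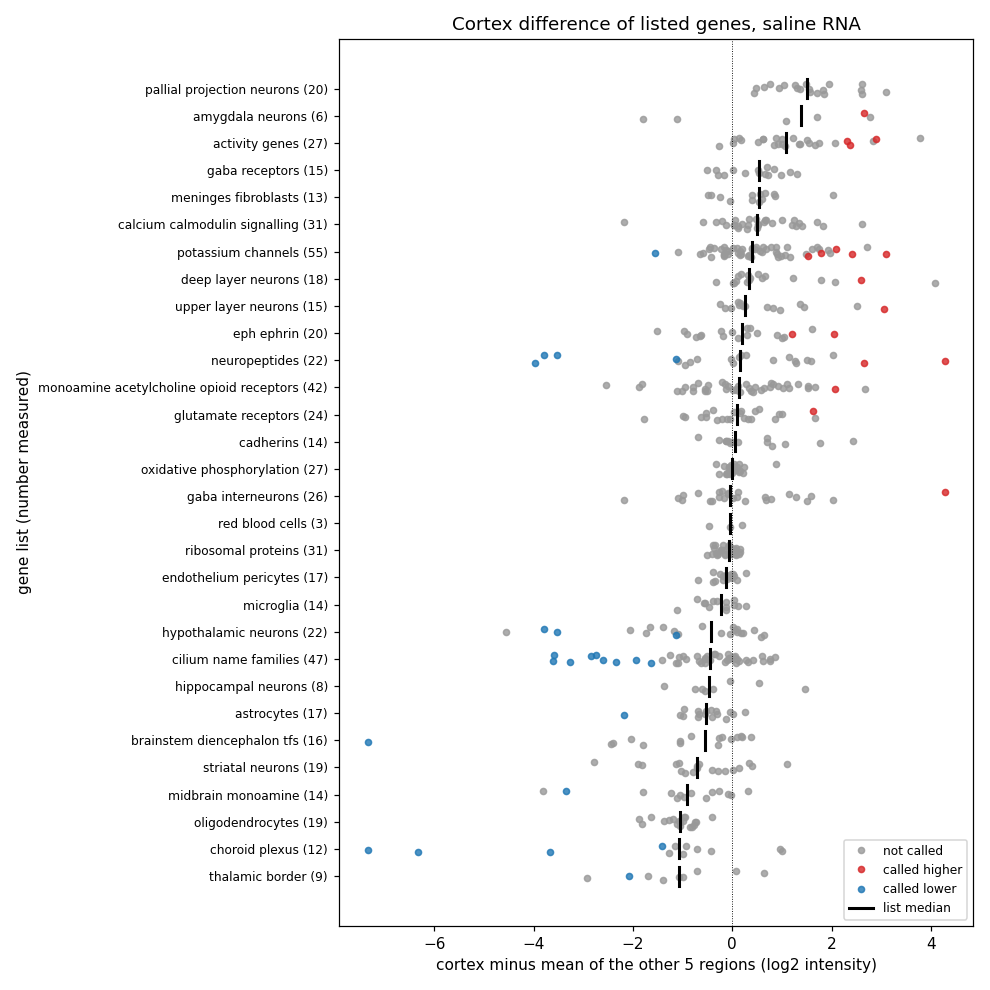
Cortex minus the mean of the other 5 regions (log2 intensity, horizontal) for the members of each gene list (vertical, number measured in brackets), with called genes in colour and the list median as a black bar. Pallial projection neuron genes centre at 1.51 with no call, and choroid plexus genes hold the most extreme lower values, Otx2 and Ttr.

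The same regional comparison in the MK-801 channels used other rats on the same slides. It called 196 genes higher (0.686%) and 189 lower (0.661%) in limma over the 24 MK-801 channels. Of the saline calls, 167 of 225 higher and 154 of 224 lower genes were called in the same direction there. The regional fit on 6 MK-801 values called 0 genes, as in saline, with 1392 at an unadjusted p under 0.05. Of the higher genes with values at both doses, 211 of 212 had the cortex as the top region at both doses, and of the lower genes 208 of 212 had it at the bottom. These genes were picked for their saline values on the same slides, and the share for all genes was not counted. In saline the cortex was highest for 16.9% and lowest for 14.8% of all genes. Cort differed from the mean of the others by 4.13 at the high and 4.43 at the low dose, against 4.28 in saline, and Ttr by -6.45 and -5.90 against -6.33. The median size of the gap between MK-801 and saline differences was 0.11 at the low and 0.10 at the high dose for higher genes with a symbol, and 0.12 and 0.14 for lower genes. The largest gaps were 2.60 and 2.28 for higher genes, and 0.87 and 0.67 for lower genes.

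Ccn1, a matricellular protein, differed by 1.29 in saline and by 3.90 and 2.54 at the low and high dose. It was singled out after its values were seen, and a difference between saline and MK-801 was not tested here. Since both channels share a slide, the MK-801 values do not separate region from slide.

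**Figure D5:**
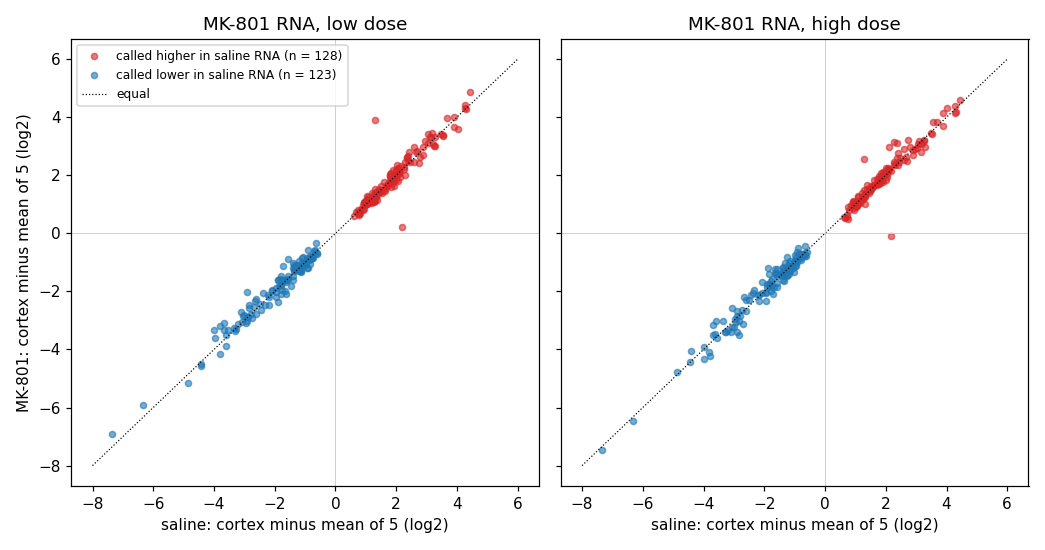
Difference between the cortex and the mean of the other 5 regions (log2) in saline RNA (horizontal) and in MK-801 RNA at the low (left) and high (right) dose (vertical), for called genes with a symbol. Most points lie along the dotted line of equal difference, with Ccn1 above it at 3.90 in the low dose panel. Among higher genes the largest gap was 2.60 at the low dose and, for another gene, 2.28 at the high dose. Genes not well above background on one side are drawn at their measured signal.

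Of the called transcripts, 93 higher and 90 lower had no gene symbol. Within 10 kb of a called gene of the same direction lay 8 of the 93 and 6 of the 90, among them transcripts beside Rxfp1, Ephb6, Lingo1, Scube1 and Bhlhe40 on the higher side and Kcnj16, Sparc and Slc4a4 on the lower side. The transcript beside Rxfp1 differed by 3.21 and Rxfp1 by 2.59, and that beside Kcnj16 by -3.27 and Kcnj16 by -3.81. Of 72 called genes with a symbol and more than 1 probe, another probe had the opposite sign in 4, Cntrl, Zfhx3, D430041D05Rikl and Dnah12.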

How the data were processed

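The deposited scanner files held, per the file headers, spot intensity in Cy3 and Cy5 after the scanner software's background subtraction and dye normalization, made with Agilent Feature Extraction 9.5.3.1 per the submitters' processing notes. The saline channel of each of the 24 arrays was taken (processed Cy3 or Cy5 intensity). Controls were removed, values log2 transformed and the 24 channels quantile normalised. Outlier spots were then left out and replicate spots averaged. Probes well above background in at least 4 channels were kept (33567 of 41012), and each gene was read by its brightest probe. Of 28697 genes, 117 without a value in every region were dropped, and 1700 of the rest lacked a channel and were fitted without it. Regional values averaged the dyes. Tests used limma 3.58.1 in R 4.3.3 with Benjamini-Hochberg adjustment at 0.05. The first fit set the cortex against 5 regional values. The fit against each region, with a dye term, was added after the first called 0 genes. Both were tested on simulated data and also run on the MK-801 channels. A bound sets the bright mean against the higher, per array, of the dim signal and the lowest signal well above background.

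Named genes were the 15 called genes with a symbol furthest in each direction whose cortex channels did not overlap the others, the called members of 29 gene lists and the markers. The rule was written for the first fit and applied to the second. Members and lists were chosen with earlier results of these data known, and the cilium families after the values were seen. Names came from the RefSeq table of GRCr8 (10852 probes by accession, 5537 by symbol, 3705 by synonym, the file's name otherwise). Array number limits the precision. The closing section gives the alternatives. Python 3.11.15, pandas 2.3.3, numpy 2.4.6 and matplotlib 3.10.9 made tables and figures. Results on some named genes are not reported here.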

Additional observations from a re-analysis of the deposited data

Results flagged for a closer look

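In 7 of the 83 named genes, 1 of the 4 cortex channels stood apart from the other 3. The gap, as a share of the range, exceeded Dixon's 95% critical value for 4 values. Chance marks about 1 in 20 tested genes. Hs3st2, 1 of the 83, had only 3 cortex channels and was not tested. The separate value was 8.02 for Prr15 (others 7.82 to 7.84), 2.12 for Otx2 (others 1.72 to 1.76), 2.51 for C8h11orf97 (others 1.84 to 1.92) and 3.67 for Cfap43 (others 4.52 to 4.58). It was 12.18 for Neurod6 (others 11.63 to 11.67), 11.70 for Cux2 (others 11.19 to 11.21) and 9.34 for Foxp2 (others 9.57 to 9.62). The separate channel of Neurod6 and of Cux2 was array 1. In Prr15, Otx2, C8h11orf97 and Cfap43 it stayed beyond every channel of the other regions.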

How the results depend on the processing

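The fit on 6 regional values called 0 genes under every alternative that kept 1 value per region, with a lowest adjusted p between 0.0522 and 0.835. Treating the 24 channels as separate values gave 4264 higher and 4443 lower genes, and with the region as a random block (correlation 0.565) 51 and 66. The replicate block gave 4298 and 4432 in that fit, and 216 higher and 222 lower in the fit against each region (225 and 224 without it). After the region mean of each gene was subtracted, the remaining deviations of channels of the same number in different regions correlated between -0.127 and 0.238. The labels give no pairing. The fit against each region gave 141 higher and 78 lower with normexp correction, of which 121 and 74 were shared. Percentile scaling gave 282 and 160 and moved the median difference of all genes from 0.01 to 0.12. Fewer channels gave fewer calls, with 10 and 25 in Cy3, 51 and 70 in Cy5, 9 and 15 on high dose arrays, 33 and 55 on low dose arrays, and in MK-801 RNA 7 and 12 at the high and 36 and 43 at the low dose. Leaving out a region asks for fewer differences, and gave 362 and 365 without the amygdala, 344 and 398 without the ventral striatum, and 473 and 468 without the hippocampus. Without cortex replicates 1 to 4 in turn, 168 to 176 genes were higher and 159 to 212 lower. Over the 50 named and called genes, 856 of 1074 repeats kept the call, 218 lost it and 0 turned direction, and 5 of the 50 kept their call in every repeat. The cause of these changes was not tested.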

Other observations

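The genes in this paragraph were singled out after their values were seen and form no list. Cckbr, the brain receptor of cholecystokinin, ranged from 10.21 to 10.45 and lay 1.02 ± 0.17 (SE) above the amygdala (limma, adjusted p = 0.000977). Crhr1, the main receptor of corticotropin-releasing hormone, ranged from 10.87 to 11.16 (adjusted p = 0.0127), and Crhbp, which binds that hormone, from 10.93 to 11.31 (adjusted p = 0.0143). Their peptides Cck and Crh had the cortex highest, by 1.51 and 1.58 over the mean of the others, without a call. On the lower side, Ednrb, an endothelin receptor of astrocytes, ranged from 8.71 to 8.95 against 9.62 ± 0.22 (SD, n = 4) in the hippocampus (adjusted p = 0.000553). Gnal, the G protein subunit of striatal and olfactory neurons, ranged from 8.45 to 8.60 and lay lowest in the cortex as well (adjusted p = 0.000888). Calcr, the calcitonin receptor, read 2.39 ± 0.37 in the cortex and 2.72 ± 0.65 in the hippocampus, with 9.13 ± 0.22 in the midbrain, and was not called. Of 583 measured genes with olfactory receptor names, 5 (0.858%) were called higher, against 0.787% of all genes.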
